A study of Mus musculus with 12 samples.

Results

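The 10 genes described here encode proteins of focal adhesions and of costameres, the rib-like attachment sites that tie the outer myofibrils of a muscle fibre to its surface membrane. They are vinculin (Vcl), the talins Tln1 and Tln2, the filamins Flna and Flnc, the members of the integrin-linked kinase complex Ilk, Parva and Lims1, and the LIM domain proteins Pxn (paxillin) and Zyx (zyxin). They were chosen by name, and all 10 were found by exact symbol among the 21936 genes of the files. RNA with poly(A) tails came from muscle of C57BL/6N mice 3 months old, either wild type or knockout for PTRF (cavin 1, a coat protein of caveolae), the latter annotated as dystrophic. The labels name no promoter, Cre line or target cell for the knockout, so it is described only as a PTRF knockout. Of 12 labelled samples, the quadriceps files repeat the soleus values of the same genotype and number with a largest difference of 0 TPM, which leaves 3 wild-type and 3 knockout libraries whose muscle of origin cannot be told apart.

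In a focal adhesion, talin binds the inner tail of a beta integrin and activates the receptor, and vinculin then couples talin to actin filaments under tension. Filamins cross-link actin and bind integrin tails, and the complex of integrin-linked kinase, PINCH (Lims1) and parvin gives the receptor a separate link to actin. Paxillin is a scaffold for signalling proteins, and zyxin moves to actin bundles that are under strain. In skeletal muscle these proteins sit at costameres and at the myotendinous junction, where force passes sideways from the contractile apparatus to the matrix, and filamin C also lies at Z-discs.

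All 10 genes are protein coding, and their positions are those of GENCODE release M21 on GRCm38. Flnc (chromosome 6, 29433256 to 29461883, plus strand) and Zyx (chromosome 6, 42349630 to 42360213, plus) share a chromosome, as do Ilk (chromosome 7, 105736592 to 105742925, plus) and Parva (chromosome 7, 112427505 to 112591692, plus). Vcl lies on chromosome 14 (20929398 to 21033676, plus), Tln1 on chromosome 4 (43531519 to 43562691, minus), Tln2 on chromosome 9 (67217087 to 67559703, minus), Flna on chromosome X (74223461 to 74249820, minus), Pxn on chromosome 5 (115506676 to 115555987, plus) and Lims1 on chromosome 10 (58323466 to 58424691, plus).

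Stretches of promoter are shown for 4 of the 10 genes, from RefSeq on GRCm38.p6. Vcl and Flnc had the largest fold changes, Flna is the paralogue of Flnc, and Zyx is the gene with a match to the AP-1 motif. RefSeq windows of 300 bases, from 250 before to 50 after a start site, were held for 7 of the 10 genes (11 windows). Capitals mark matches to the CArG box (the binding motif of serum response factor, SRF), to the TEAD motif GGAATG, to the AP-1 motif TGANTCA and to the GC box GGGCGG, each searched on both strands. Each stretch reads 5′ to 3′ on the gene's own strand.

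Vcl, chr14:20929158-20929302, plus strand, from 240 to 96 bases before the start site: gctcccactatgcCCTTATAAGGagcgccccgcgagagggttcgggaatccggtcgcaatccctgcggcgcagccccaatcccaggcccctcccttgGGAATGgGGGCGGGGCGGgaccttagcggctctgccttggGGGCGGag
Flnc, chr6:29433068-29433151, plus strand, from 85 to 2 bases before the start site: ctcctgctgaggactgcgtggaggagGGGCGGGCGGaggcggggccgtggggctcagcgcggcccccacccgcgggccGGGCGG
Flna, chrX:74246605-74246714, minus strand, from 180 to 71 bases before the start site: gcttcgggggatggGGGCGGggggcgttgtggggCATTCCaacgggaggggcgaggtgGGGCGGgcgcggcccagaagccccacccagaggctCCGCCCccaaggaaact
Zyx, chr6:42349697-42349723, plus strand, from 131 to 105 bases before the start site: gtgcggacagTGAGTCAgttctccagc

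The CArG box was matched in 1 of the 11 windows, that of Vcl, at positions -227 to -218 from the start site, and in 1.63% of all 32851 windows. The TEAD motif was matched in 4 of the 11 (Vcl, Flna and both of Flnc), and in 14.7% of all windows. Both Flnc windows overlap and share the same site, which lies just past the printed stretch. By gene, the TEAD motif was matched in 3 of 7, against 16.6% of all genes. The AP-1 motif was matched in 1 of the 11, that of Zyx, and in 7.81% of all windows. The GC box, the common motif of CpG-rich promoters, was matched in 7 of the 11, from 6 genes, and in 35.7% of all windows. By gene this was 6 of 7, against 38.2% of all genes, with GC boxes also shared between the Flnc windows. Adjacent GC boxes overlapped each other in Vcl and Flnc. The median GC content was 66.7% over the 11 windows and 52.7% over all windows. The Zyx stretch lies upstream of the RefSeq start site used here but downstream of the GENCODE start of Zyx, and its 5′ end overlaps the first exon, in the UTR, of a GENCODE transcript, while its AP-1 match lies in that transcript's first intron. The Flna stretch also lies upstream of its RefSeq start site but downstream of the GENCODE start of Flna, and overlaps no GENCODE exon. These are matches of letters and were not tested against the expression values.

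Values were read as TPM, shares of a library's transcripts scaled for transcript length, so levels can be compared between genes. Library totals over the listed genes ran from 843194 to 872482 TPM. The read depth behind them is unknown, so no counting interval is given. The targeted gene Cavin1 stood at 40.0 to 45.2 TPM in the wild type and 0.0254 to 0.284 TPM in the knockout. All 10 muscle fibre markers (among them Ckm, Acta1 and Myh7) were present in every library, summing to 38254 to 43245 TPM in the wild type and 41875 to 49925 TPM in the knockout. Nothing in the labels says that numbered samples were separate animals, so each p-value measures the spread between these libraries, which may be technical. In bulk RNA, fewer cells of a type and less RNA per cell cannot be told apart.

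All 10 genes were above 0 in each of the 6 libraries and passed the filter of 1 TPM in at least 3 libraries, none of them through the knockout alone. Flnc was the most abundant, at 118.6 ± 11.6 TPM in the wild type (SD, n = 3), and ranked 533 among the 11056 tested genes. Lims1 followed at 36.5 ± 2.84 TPM, then Ilk at 22.2 ± 4.40, Flna at 20.1 ± 2.32 and Pxn at 17.4 ± 1.48 TPM. Tln2 (10.4 ± 0.322 TPM), Tln1 (9.30 ± 1.11), Vcl (8.07 ± 0.0763) and Zyx (7.44 ± 1.38) lay close together, and Parva was lowest at 3.56 ± 0.334 TPM. Wild-type ranges overlapped between the neighbours Ilk and Flna, Flna and Pxn, Tln2 and Tln1, and Vcl and Zyx, so those steps of the order do not exceed the spread. In the knockout, Tln1 and Vcl stood above Tln2 by their means, with ranges that overlapped between Tln1 and Vcl and between Vcl and Tln2.

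**Figure D1:**
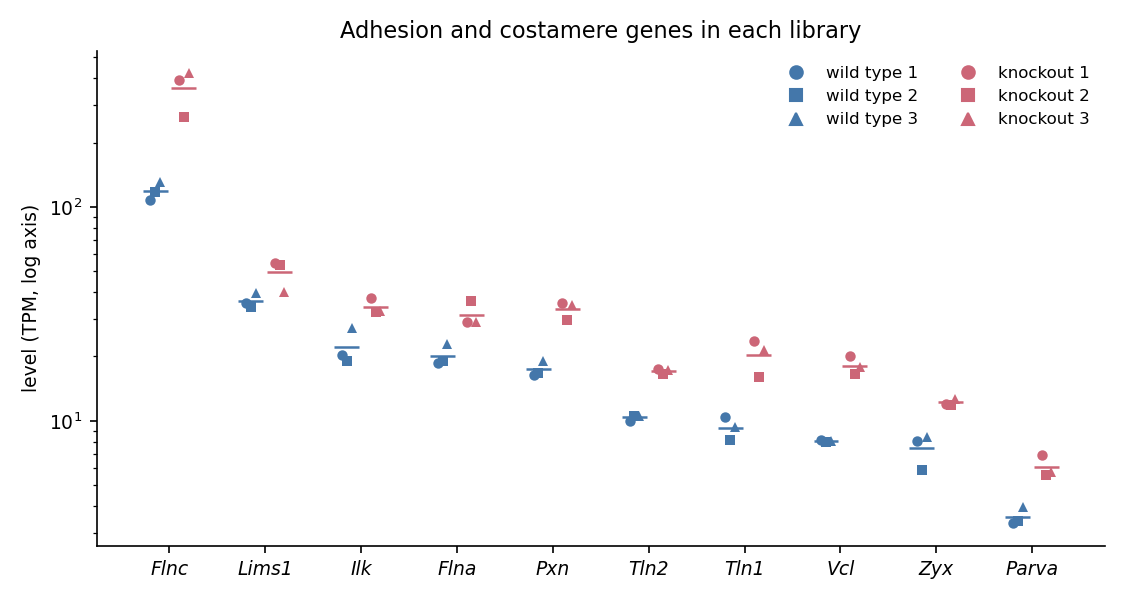
Level of each gene in TPM (log axis) in the 3 wild-type and 3 knockout libraries. Points are libraries and horizontal lines are group means. The knockout points lie above the wild-type points for all 10 genes, with the narrowest gap for Lims1.

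Each gene was then compared between knockout and wild type. Of the 10 genes, 9 were higher in the knockout by limma (a linear model with moderated variances on log2(TPM + 1), adjusted p under 0.05 over all tested genes) and none was lower. The exception was Lims1. The background is high: 36.3% of all 11056 tested genes were higher and 2.92% lower by the same rule. All 10 genes had every knockout library above every wild-type library, as did 48.7% of the tested genes. The median log2 fold change of the 10 was 0.66, against 0.33 over all tested genes, and each of the 10 lay above that overall median.

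In the TPM values as deposited, vinculin and talin 1 more than doubled by their means. For Vcl the wild type gave 8.14, 7.99 and 8.08 TPM and the knockout 20.0, 16.6 and 17.9 TPM, with values here and after this listed from library 1 to library 3. The wild-type libraries were almost equal and far below all knockout libraries, a ratio of means of 2.25. Its log2 fold change was 1.07 (SE 0.14, 95% interval 0.77 to 1.38, limma adjusted p = 0.000155).

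Tln1, the talin of most cell types, stood at 10.4, 8.18 and 9.34 TPM against 23.5, 16.0 and 21.4 TPM. Knockout library 2 was the lowest of its group, yet above the highest wild-type library, and its log2 fold change was 1.04 (SE 0.17, adjusted p = 0.000740 by limma). Tln2, the talin enriched in striated muscle, went from 10.03, 10.6 and 10.6 TPM to 17.4, 16.6 and 17.2 TPM. Both groups were tight and did not overlap, and the log2 fold change was 0.66 (SE 0.13), with an adjusted p of 0.00263 by limma.

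Filamin C, the muscle filamin, showed the largest fold change of the 10. Flnc stood at 108, 117 and 131 TPM in the wild type and at 391, 264 and 422 TPM in the knockout, a ratio of means of 3.03. The 3 knockout values spread widely, with library 2 well below the others, but all lay above the highest wild-type value. Its log2 fold change was 1.56 (SE 0.19, 95% interval 1.15 to 1.98, limma adjusted p = 1.00e-04), higher than that of 97.6% of tested genes.

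Filamin A, the filamin of non-muscle cells, stood at 18.6, 19.0 and 22.8 TPM against 28.9, 36.5 and 28.9 TPM. Here knockout library 2 was the highest of its group, the reverse of its place for Flnc. The log2 fold change of Flna was 0.61 (SE 0.15), with an adjusted p of 0.00962 by limma.

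In the integrin-linked kinase complex Ilk and Parva rose and Lims1 did not pass. Ilk, the pseudokinase at its centre, stood at 20.4, 19.1 and 27.3 TPM against 37.7, 32.1 and 32.6 TPM (log2 fold change 0.61, SE 0.16, limma adjusted p = 0.0134). Wild-type library 3 was the highest of its group and the one nearest to the knockout. Leaving out wild-type library 1 (adjusted p = 0.0538) or wild-type library 2 (0.0677) ended the call, and the adjusted p of Ilk ran from 0.00560 to 0.145 over the alternatives.

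Parva, the actin-binding partner alpha-parvin, stood at 3.32, 3.40 and 3.94 TPM against 6.91, 5.61 and 5.76 TPM, with groups well apart (log2 fold change 0.64, SE 0.14, limma adjusted p = 0.00513). Lims1, the LIM domain partner PINCH1, stood at 35.7, 34.2 and 39.7 TPM against 54.9, 53.3 and 40.0 TPM. Knockout library 3 lay next to wild-type library 3, and the log2 fold change of 0.42 (SE 0.16, 95% interval 0.07 to 0.77) did not pass (limma adjusted p = 0.0578). Without knockout library 3 the log2 fold change of Lims1 was 0.56 and it passed (adjusted p = 0.0375).

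Of the annotated exonic bases of Ilk, 76.8% are shared with Taf10 on the opposite strand and 12.9% with Rrp8, also on the opposite strand. Whether strand was used in the quantification is not given in the sources used here, and without strand such reads cannot be told apart. Taf10, a subunit of the general transcription factor TFIID, stood at 38.6, 37.8 and 40.0 TPM against 64.3, 42.0 and 64.2 TPM (log2 fold change 0.51, limma adjusted p = 0.0387). Rrp8 did not pass (log2 fold change 0.43, limma adjusted p = 0.0741). Vcl shares 25.5% of its exonic bases with Ap3m1, which did not pass (log2 fold change 0.12, limma adjusted p = 0.499). Tln1 shares 3.67% with Creb3, which did not pass (log2 fold change 0.36, limma adjusted p = 0.0809). Zyx shares 4.38% with Epha1, which stayed under 1 TPM in every library. The part of these neighbours in the values of the adhesion genes was not tested.

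Paxillin stood at 16.4, 16.8 and 19.1 TPM in the wild type and at 35.7, 29.5 and 34.7 TPM in the knockout. Pxn had the fourth largest change of the 10, a ratio of means of 1.91 (log2 fold change 0.90, SE 0.14, limma adjusted p = 0.000714), and its groups lay far apart.

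Zyxin stood at 8.02, 5.87 and 8.44 TPM against 12.0, 11.9 and 12.6 TPM. The knockout libraries were nearly equal and wild-type library 2 was the lowest of all 6. The log2 fold change of Zyx was 0.66 (SE 0.16), with an adjusted p of 0.00702 by limma.

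These changes depend in part on the scale of the libraries. TPM is a share, and transcripts of the mitochondrial genome took 43.0 to 52.3% of the wild-type and 39.0 to 45.7% of the knockout totals. After trimmed-mean rescaling, which divides each library by a trimmed mean of its gene ratios to a reference library, the median of all tested genes moved from 0.33 to -0.01. On that scale 5 of the 10 genes were higher and none lower, against 14.2% of tested genes that were higher. The 5 were Flnc (log2 fold change 1.17, adjusted p = 0.00100), Vcl (0.71, adjusted p = 0.00141), Tln1 (0.67, adjusted p = 0.00576), Pxn (0.52, adjusted p = 0.00338) and Parva (0.31, adjusted p = 0.0403), all by limma. Tln2 (0.30), Zyx (0.30), Flna (0.24), Ilk (0.23) and Lims1 (0.03) had positive log2 fold changes that did not pass, with limma adjusted p-values of 0.0624, 0.108, 0.278, 0.126 and 0.894.

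After quantile normalization 5 were again higher, against 12.4% of tested genes. These were Flnc, Vcl, Tln1, Pxn and Ilk (limma adjusted p = 0.0472), while Parva did not pass (0.127). When each library was scaled to its nuclear transcripts alone, 8 of the 10 were higher, against 23.9% of tested genes, with medians over all tested genes of -0.04 and 0.16 on these last scales and Flna just outside the threshold (limma adjusted p = 0.05002) and Lims1 at 0.263. Flnc, Vcl, Tln1 and Pxn passed under all 16 alternatives, each left-out library included.

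**Figure D2:**
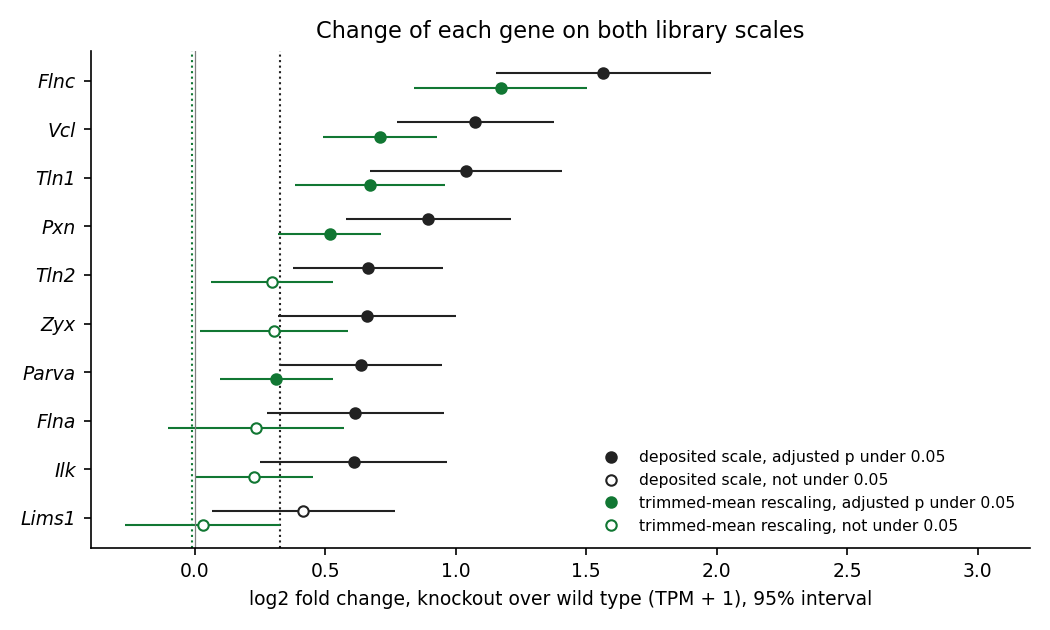
Log2 fold change of each gene (knockout over wild type, TPM + 1) with its 95% interval, on the deposited scale (black) and after trimmed-mean rescaling (green). Filled points have an adjusted p under 0.05, and dotted lines mark the median of all tested genes on each scale (0.33 and -0.01). Flnc, Vcl, Tln1, Pxn and Parva are filled on both.

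The rank of a gene within its own library does not depend on any library scale. This measure was added after the values were seen and carries no test. Flnc ranked 549, 523 and 538 among the 11056 genes in the wild type and 220, 278 and 193 in the knockout. Vcl ranked 4749, 4681 and 5175 in the wild type and 3361, 3367 and 3388 in the knockout. For 9 of the 10 genes every knockout rank was higher than every wild-type rank, as it was for 19.5% of the tested genes. Lims1 was the exception, at 1483, 1557 and 1557 against 1383, 1183 and 1678.

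Ratios of paralogues within a library nearly remove its scale. The ratios below are of TPM values, and their log2 values and tests use TPM + 1 in both genes. Flna to Flnc was 0.172, 0.162 and 0.174 in the wild type and 0.0739, 0.139 and 0.0684 in the knockout, so that filamin C outweighed filamin A further in every knockout library. On the log2 scale this ratio differed by -0.95 (-2.50 ± 0.05 in the wild type and -3.45 ± 0.55 in the knockout, SD, n = 3; exact permutation test, two-sided p = 0.1, the smallest that 3 against 3 allows, and 0.267 adjusted over 4 ratios).

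Tln1 to Tln2 was 1.04, 0.773 and 0.882 in the wild type and 1.35, 0.969 and 1.24 in the knockout. The groups overlapped through knockout library 2 and wild-type library 1 (difference 0.38 on the log2 scale, exact permutation test, two-sided p = 0.2).

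Parva to Parvb was 0.270, 0.272 and 0.321 in the wild type and 0.277, 0.299 and 0.348 in the knockout, with overlapping groups and a log2 difference of -0.0002 (exact permutation test, p = 1). Parvb, beta-parvin, was the more abundant parvin in every library, at 12.4 ± 0.129 TPM in the wild type and 20.1 ± 4.33 TPM in the knockout (log2 fold change 0.64, limma adjusted p = 0.0105). After trimmed-mean rescaling Parvb did not pass (adjusted p = 0.164).

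Lims1 to Lims2 was 1.43, 1.14 and 0.944 in the wild type and 2.26, 2.27 and 1.34 in the knockout, with groups that overlapped (log2 difference 0.70, exact permutation test, p = 0.2). Lims2, which encodes the related PINCH2, was at 32.3 ± 8.79 TPM in the wild type and 25.9 ± 3.48 TPM in the knockout (log2 fold change -0.29, limma adjusted p = 0.239). After trimmed-mean rescaling Lims2 passed as lower (log2 fold change -0.67, limma adjusted p = 0.0173).

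**Figure D3:**
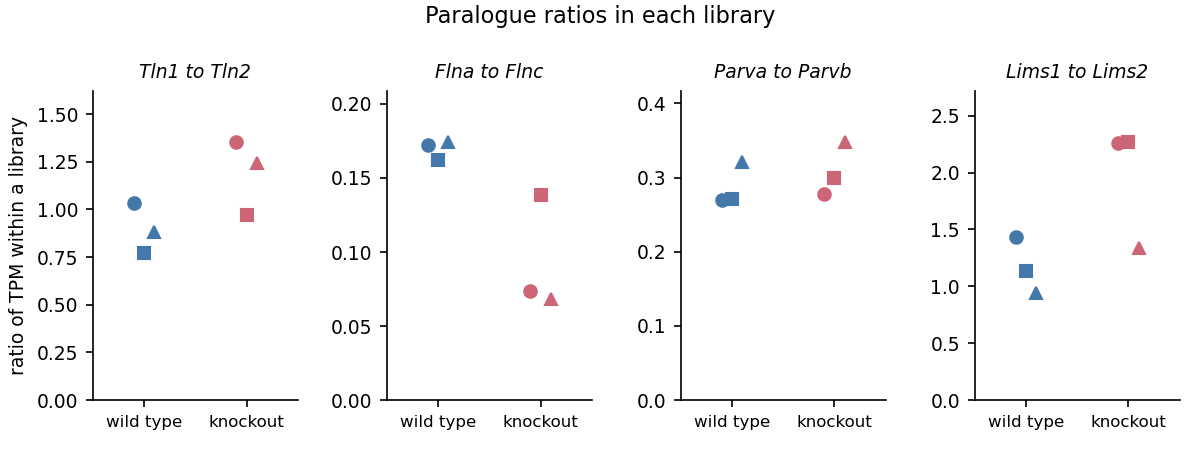
Ratio of the TPM values of 2 paralogues in each of the 3 wild-type and 3 knockout libraries (circles, squares and triangles for libraries 1, 2 and 3), with axes from 0. The Flna to Flnc ratio is the one whose groups do not overlap, from 0.162 to 0.174 in the wild type and from 0.0684 to 0.139 in the knockout.

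The 10 genes did not rise evenly in every knockout library. Their summed level was 239, 242 and 280 TPM in the wild type and 628, 482 and 633 TPM in the knockout. Flnc made up 45.2 to 48.3% of that sum in the wild type and 54.7 to 66.6% in the knockout. Without Flnc the other 9 summed to 131, 125 and 149 TPM in the wild type and to 237, 218 and 211 TPM in the knockout. Knockout library 1 held the highest value of its group for 7 of the 10 genes and knockout library 2 the lowest for 8. Wild-type library 3 held the highest value of its group for 8 genes. With wild-type library 2 and knockout library 1 both set aside, 6 of the 10 were higher and none lower, against 16.0% of tested genes that were higher.

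The wider adhesion machinery was described from 4 lists, with counts on the deposited scale to be read against the 36.3% of tested genes that were higher. Of 40 other focal adhesion proteins 36 were tested, and 24 (66.7%) were higher and none lower, with a median log2 fold change of 0.54. Actn1, the alpha-actinin that bundles actin at adhesions, rose from 2.65 ± 0.283 to 9.49 ± 0.916 TPM (log2 fold change 1.52, limma adjusted p = 1.77e-05). Csrp1, a LIM protein that binds alpha-actinin, rose from 14.1 ± 0.911 to 31.0 ± 2.68 TPM. Ptk2b, a kinase related to focal adhesion kinase, rose from 0.238 ± 0.0918 to 2.14 ± 0.521 TPM. Ptk2b and Fblim1, the latter named after its values were seen, were under 1 TPM in all wild-type libraries and met the filter through the knockout alone. On the trimmed-mean scale 9 of 36 were higher (25.0%) and 2 lower, Lims2 and Nedd9, named after their values were seen. Of all genes tested on that scale 14.2% were higher and 13.5% lower, and the counts on it in the next paragraphs are read against these shares. Without knockout library 3, 15 of the list and 23.7% of all tested genes were higher.

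Of 27 muscle costamere proteins and filamin C partners, all tested, 14 (51.9%) were higher and 1 lower, with a median of 0.51. Xirp1, which binds filamin C and is known from sites of fibre damage, rose from 53.5 ± 9.74 to 193 ± 44.6 TPM (log2 fold change 1.82, limma adjusted p = 4.21e-05). Csrp3, the muscle LIM protein, rose from 533 ± 188 to 2362 ± 1023 TPM, Synpo2, an actin- and filamin-binding protein, from 57.6 ± 8.77 to 131 ± 40.2 TPM, and Sorbs2, a vinculin-binding adaptor, from 4.10 ± 0.959 to 10.1 ± 1.08 TPM. The 1 lower gene, named after its values were seen, was Itgb1bp2 (melusin, which binds the tail of integrin beta 1). Itgb1bp2 was at 137, 99.4 and 143 TPM in the wild type and at 65.0, 77.5 and 68.8 TPM in the knockout (log2 fold change -0.82, limma adjusted p = 0.00325), and it also passed after trimmed-mean rescaling (adjusted p = 0.00119). After that rescaling 10 of the 27 were higher (37.0%) and 2 lower, Itgb1bp2 and Asb2, a ubiquitin ligase subunit for filamins that was also named after its values were seen. With wild-type library 2 and knockout library 1 both set aside, 6 were higher, again against 16.0% of tested genes.

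Of 17 costamere receptors and their linked proteins 6 (35.3%) were higher and none lower, a share near the 36.3% of all tested genes before any rescaling, with a median of 0.42. Itga5, the fibronectin receptor subunit, rose from 4.57 ± 0.569 to 20.7 ± 6.32 TPM, Utrn, the dystrophin relative utrophin, from 5.90 ± 0.864 to 14.0 ± 1.22 TPM, Itga6, a laminin receptor subunit, from 11.5 ± 2.18 to 22.2 ± 1.09 TPM and Sgcd, delta-sarcoglycan, from 3.83 ± 0.399 to 7.88 ± 2.06 TPM. The other 2, named after their values were seen, form the main laminin receptor of muscle fibres. Itga7 stood at 20.2, 22.1 and 23.3 TPM against 64.9, 31.1 and 47.3 TPM (limma adjusted p = 0.00409). Itgb1, whose tail talin binds, stood at 110, 102 and 123 TPM against 224, 156 and 162 TPM (limma adjusted p = 0.00975, and 0.0776 after trimmed-mean rescaling). After that rescaling 5 of the 17 were higher (29.4%, against 14.2% of tested genes). Without knockout library 2, on the deposited scale, 10 of the 17 and 38.8% of tested genes were higher.

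Of 20 genes of the SRF and MRTF pathway, which couples actin assembly to transcription, 19 were tested, and 11 (57.9%) were higher and none lower, with a median of 0.70. Ankrd1, an ankyrin repeat protein of strained muscle, rose from 5.06 ± 1.66 to 33.9 ± 12.6 TPM (log2 fold change 2.49, limma adjusted p = 6.15e-05). The actin-binding proteins Tagln2, Tpm4 and Cnn3 rose by log2 fold changes of 1.27, 1.29 and 1.08. On the trimmed-mean scale 7 of the 19 were higher (36.8%) and 1 lower, Myl9, named after its values were seen.

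**Figure D4:**
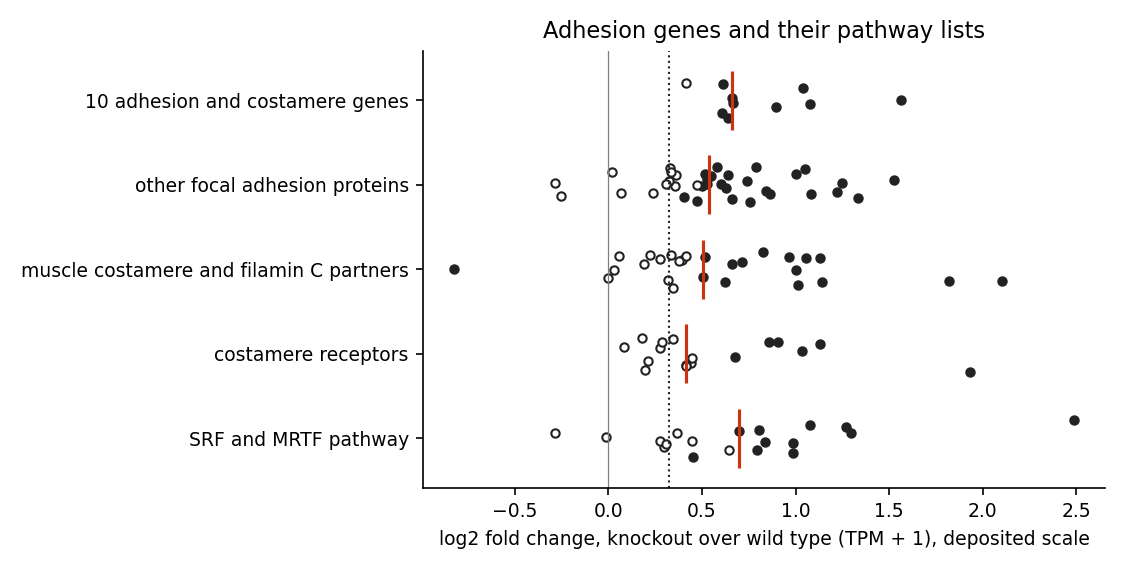
Log2 fold change (knockout over wild type, TPM + 1, deposited scale) of each tested gene in the 10 adhesion and costamere genes and in 4 pathway lists. Filled points have an adjusted p under 0.05, red bars are list medians (0.66, 0.54, 0.51, 0.42 and 0.70 from top to bottom), and the dotted line is the median of all tested genes, 0.33.

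Adhesion genes are also expressed by the other cells of muscle, and markers of several of these were higher in the same libraries. On the deposited scale 36.3% of all tested genes were higher and 2.92% lower, and the marker counts are read against these shares. All 8 fibroblast and fibro-adipogenic markers were higher, and their summed level was 289 to 320 TPM in the wild type and 875 to 917 TPM in the knockout. Cd34 rose from 16.3 ± 2.16 to 53.2 ± 3.13 TPM. All 8 macrophage markers were higher, summing to 32.3 to 37.9 TPM against 152 to 189 TPM, with Adgre1 (named after its values were seen) tested through the knockout libraries alone. Of 8 endothelial markers 7 were higher and Kdr was lower (from 10.1 ± 1.84 to 4.54 ± 0.981 TPM), with sums of 131 to 150 TPM against 247 to 289 TPM. Of 7 tested smooth muscle and pericyte markers 2 (28.6%) were higher (sums of 174 to 184 against 208 to 220 TPM). That share and the list's median log2 fold change of 0.27 lay below the 36.3% and 0.33 of all tested genes.

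Of 4 platelet markers 2 were tested and 1, Pf4, was higher (sums of 5.78 to 7.07 against 16.8 to 30.1 TPM). Of 3 tested Schwann cell markers none passed by limma, and the 4 listed summed to 19.6 to 20.6 against 15.1 to 18.8 TPM. After trimmed-mean rescaling and after quantile normalization 2 of the 3 were lower, as was 1 when scaled to nuclear transcripts alone. Of 10 muscle fibre markers 1 was higher, Neb (limma adjusted p = 0.0382, and 0.814 after trimmed-mean rescaling), and none lower. The platelet marker Gp9 was at 0 in 3 of the 6 libraries. No fibre, endothelial, smooth muscle, fibroblast, macrophage or Schwann marker was at 0 in any library. After trimmed-mean rescaling all 8 fibroblast and all 8 macrophage markers were higher, as were 6 of the endothelial markers, and Tnnt1 and Mb of the fibre markers were lower. Of all genes tested on that scale 14.2% were higher and 13.5% lower. Gp9, Tnnt1 and Mb were named after their values were seen. The part of these cells in the values of the adhesion genes was not tested.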

How the data were processed

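TRIzol was used for the RNA and NEBNext Ultra for the libraries, per the labels' protocols. The submitters' processing notes list kallisto 0.43.0, STAR 2.5.3a and, as builds, mm10 and GRCm38, with no roles. The deposited values were read as TPM from the values alone, since no label or header states a unit. Genes not listed in a file were set to 0. Of the gene identifiers 21817 matched GENCODE M21. A gene was tested where 3 or more of the 6 libraries reached 1 TPM. Values of log2(TPM + 1) went into limma 3.58.1 (R 4.3.3), using an intensity trend, 4 residual degrees of freedom and Benjamini-Hochberg adjustment over all genes. Fold changes on this scale understate those of low genes. Ratios were tested by exact permutation. Trimmed-mean rescaling cut 30% of ratios and 5% of levels at each end, without weights. The fit was tested on simulated data that held no shift of library scale, so that test does not cover such a shift. The 10 genes, the lists and the alternatives were chosen with earlier results of these data known. Named were all 10 genes, Cavin1, the paralogues Parvb and Lims2, genes that overlap the 10, and up to 4 passing genes of a list with the smallest adjusted p, other names being marked in the text. One gene that the rule names is not reported here. Same-numbered libraries were not treated as pairs. Python 3.11.15, pandas 2.3.3 and matplotlib 3.10.9 were used.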

Additional observations from a re-analysis of the deposited data

How the results depend on the processing

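Over 16 alternatives the 10 adhesion genes gave 159 values, all with a positive log2 fold change. Of these, 144 kept their side of the threshold, 14 lost a call and 1 gained one. The number higher was 5 after trimmed-mean rescaling and after quantile normalization and ran from 8 to 10 with a single library left out, against 9. The other focal adhesion proteins had 9 higher and 2 lower after either of these rescalings, 2 lower on the nuclear-only scale, 12 higher with a filter of 10 TPM, 15 to 25 with a library left out and 13 with wild-type library 2 and knockout library 1 both set aside, against 24 and 0. The costamere partners had 2 lower after trimmed-mean rescaling and 6 higher with the same pair set aside, against 1 and 14. The receptors had 6 to 10 higher with a library left out, against 6. The SRF and MRTF list had 7 higher and 1 lower after either rescaling and 1 lower on the nuclear-only scale, against 11 and 0.

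Of all tested genes, 1561 were higher and 1479 lower after trimmed-mean rescaling, 1373 and 1450 after quantile normalization, and 2634 and 760 on the nuclear-only scale, against 4016 and 323. That is 51.3%, 48.6% and 77.6% of calls higher, against 92.6%. With a filter of 10 TPM 1616 were higher. With that pair set aside it was 1673 higher and 213 lower. With a library left out the higher calls ran from 2379 to 4150 (2535 without the second wild-type library, and 2379 and 2504 without the knockout libraries 1 and 3). With the replicate block the 10 genes again had 9 higher and 0 lower, and the SRF and MRTF list had 13 higher. Same-numbered libraries had correlations of their deviations of 0.028, -0.008 and 0.037, so the numbers were not taken as pairs. All 40 values of the 4 paralogue ratios moved by less than 1 SD, taken as the larger of the wild-type and knockout SDs. Leaving out 1 of 3 libraries cannot move a group mean that far, so those values say nothing about stability. The Tln1 to Tln2 difference fell from 0.38 to 0.19 with the same pair set aside. That of Flna to Flnc was -0.76 without knockout library 3 and -1.27 without knockout library 2. The causes were not tested. Depth is unknown, and 3 libraries a group keep an exact test from going below 0.1.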
